A study of Drosophila melanogaster with 8 samples.

Results

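The vacuolar ATPase genes were taken as every protein-coding gene on the 6 chromosome arms (2L, 2R, 3L, 3R, X and 4) whose symbol starts with Vha, which gave 33 of 13922 genes. They were described across 4 lists of peaks from chromatin immunoprecipitation with an antibody to the phosphorylated, active state of the stress kinase p38 (P-p38). The cells were of the Drosophila line S2, which came from embryos and resembles haemocytes. H2O2 libraries came from wild-type S2 cells given 10 mM H2O2 for 30 min at 25 ºC, and control libraries came from wild-type S2 cells given the same volume of culture medium (2 libraries per group). The other 4 samples of the series are inputs, 2 per group, and were not analysed here. The question was where P-p38 lay over these genes with and without oxidative stress. Nothing in the labels says that replicates were separate cultures, so the spread between libraries may be technical.

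The V-ATPase is a rotary proton pump. Its cytosolic V1 sector (subunits A to H) hydrolyses ATP and turns a central stalk, and its membrane V0 sector (a, c, c'', d and e, with accessory subunits) carries protons into the lumen of lysosomes, endosomes and secretory vesicles. Lysosomal acid is needed by phagocytic cells such as haemocytes to digest what they take up, and the pump is also part of the machinery that senses amino acids at the lysosome. In flies most subunits are encoded by a widely used gene and by further copies, many of which are known for expression in testis, nervous system or gut. The 33 genes were split on that knowledge into 14 main copies, 1 per subunit, and 19 other copies. The split was made with earlier results of these data known. Main copies had a median body length of 2907 bp (659 to 11825) and other copies 1371 bp (494 to 6788), against 2163 bp for all protein-coding genes.

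Peaks overlapped fewer main copies in both H2O2 libraries than in both control libraries, by a margin that rests largely on control replicate 2. Without peaks that also lay over another protein-coding gene, that order held for control replicate 2 alone: 1 and 2 main copies were overlapped in H2O2 replicates 1 and 2, and 2 and 13 in control replicates 1 and 2. Leaving those peaks out removed VhaSFD, Vha26 and Vha16-1 in control replicate 1, the last through a single peak over 99.5% of the gene. The other copies were rarely overlapped in any library. A peak overlapped a gene when at least 1 bp of it lay in the gene body. In H2O2 replicate 1 only Vha16-1 of the 14 main copies was overlapped, and in H2O2 replicate 2 only Vha16-1 and Vha55. In control replicate 1 the main copies overlapped were 5 of 14, and in control replicate 2 they were 14 of 14. The other copies overlapped numbered 1 and 2 of 19 in H2O2 replicates 1 and 2, and 2 and 1 of 19 in control replicates 1 and 2. Over all protein-coding genes the share overlapped was 10.0% and 11.2% in H2O2 replicates 1 and 2, and 13.0% and 12.2% in control replicates 1 and 2. The main copies in H2O2 (7.14% and 14.3%) thus lay near that background, as did the other copies in every library (5.26% to 10.5%). In control the main copies stood at 35.7% and 100% (the plot of genes overlapped by library).

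**Figure D1:**
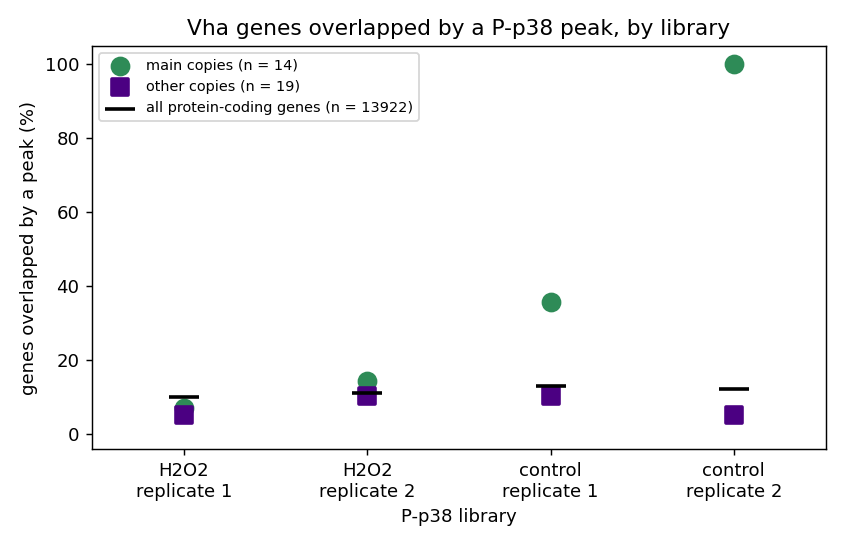
Percent of genes with at least 1 bp of the body under a P-p38 peak (vertical axis) in each of the 4 libraries (horizontal axis). Green circles are the 14 main copies, purple squares the 19 other copies and black bars all 13922 protein-coding genes. The main copies stand at 7.14% and 14.3% in H2O2 and at 35.7% and 100% in control, and the other 2 sets stay between 5.26% and 13.0%.

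Control replicate 2 stood apart from control replicate 1 at these genes, and the size of each difference between groups rests on it. Its list was the shortest, with 2988 peaks on the arms, against 6434 and 4019 in H2O2 replicates 1 and 2 and 4314 in control replicate 1. Even so it overlapped 8 main copies that no other library overlapped (Vha68-2, Vha44, Vha36-1, Vha14-1, Vha13, VhaPPA1-1, VhaM9.7-b and VhaAC45). That pattern held for 4.25% of all protein-coding genes and for 57.1% of the main copies. The read depth of the libraries is unknown, and its part in this difference between replicates was not tested. A gene without a peak may still carry signal below the authors' threshold.

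Over libraries, the number of Vha genes overlapped was 3 ± 1.41 in H2O2 and 11 ± 5.66 in control (mean ± SD, n = 2 each). The difference of -8 genes gave p = 0.333 in an exact two-sided permutation of the libraries' labels. With 2 libraries per group no smaller p is possible, so no comparison of these groups can pass 0.05. Without control replicate 2 the difference was -4 genes, and without control replicate 1 it was -12. Relative to the share of all protein-coding genes overlapped in the same library, the Vha genes stood at 0.604 and 1.08 times in H2O2 replicates 1 and 2, and at 1.64 and 3.72 times in control replicates 1 and 2. That ratio averaged 0.842 ± 0.337 in H2O2 and 2.68 ± 1.47 in control (SD, n = 2 each, exact permutation p = 0.333). Its difference was -1.84, which became -0.795 without control replicate 2 and -2.88 without control replicate 1. Peaks at q of 1e-05 or less overlapped only Vha16-1 in each H2O2 library, and 3 and 11 Vha genes in control replicates 1 and 2. With peaks at q of 1e-05 or less, the ratio was 2.59 and 2.62 in H2O2 replicates 1 and 2 and 2.09 and 6.71 in control replicates 1 and 2, so the groups overlapped (exact permutation p = 1.0).

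The share of the gene body under peaks gave the same order of libraries. Averaged over all 33 genes it was 1.84% and 3.13% in H2O2 replicates 1 and 2, and 5.22% and 18.2% in control replicates 1 and 2. Over all protein-coding genes it was 1.6% and 1.5% in H2O2, and 3.1% and 3.21% in control. The groups averaged 2.49% ± 0.906 in H2O2 and 11.7% ± 9.16 in control (SD, n = 2 each), a difference of -9.21 percentage points (exact permutation p = 0.333). It was -2.73 without control replicate 2 and -15.7 without control replicate 1. Without peaks over another protein-coding gene the share was 1.57% and 2.75% in H2O2 and 1.76% and 17.8% in control, so control replicate 1 lay between the H2O2 libraries (exact permutation p = 0.667). That filter dropped the single Vha16-1 peak of control replicate 1, which covered 99.5% of the gene and also reached CG33919. Vha16-1 thus counted as uncovered in control replicate 1 but kept peaks in both H2O2 libraries. Main copies had 3.53% and 5.95% of their bodies covered in H2O2 replicates 1 and 2, and 11.1% and 42.6% in control replicates 1 and 2. For other copies these means were 0.602% and 1.04% in H2O2, and 0.852% and 0.178% in control.

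The gap between main and other copies was wider in both control libraries than in both H2O2 libraries when all peaks were used, and in control replicate 2 alone when peaks over another protein-coding gene were left out. Main minus other copies overlapped came to 1.88 and 3.76 percentage points in H2O2 replicates 1 and 2, and 25.2 and 94.7 in control replicates 1 and 2. The change with H2O2 was -57.1 points, -22.4 without control replicate 2 and -91.9 without control replicate 1 (exact permutation p = 0.333 for the 4 libraries). For the share of body covered, main minus other copies was 2.93 and 4.91 points in H2O2 and 10.3 and 42.4 points in control. This difference of -22.4 points had an exact permutation p of 0.333, and it was -6.37 without control replicate 2 and -38.5 without control replicate 1. Without peaks over another protein-coding gene, main minus other copies was 1.88 and 9.02 points overlapped in H2O2 and 3.76 and 87.6 in control (exact permutation p = 0.667). In points covered it was then 2.29 and 5.55 in H2O2 and 2.14 and 41.5 in control (exact permutation p = 1.0). In control replicate 1 that filter dropped the single Vha16-1 peak, which covered 99.5% of the gene. With all peaks, the 5 comparisons of H2O2 with control libraries all had a Benjamini-Hochberg adjusted exact permutation p of 0.333. The gap itself is over genes, which are not replicates, and its classes were chosen with earlier results of these data known. It is given as a description.

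**Figure D2:**
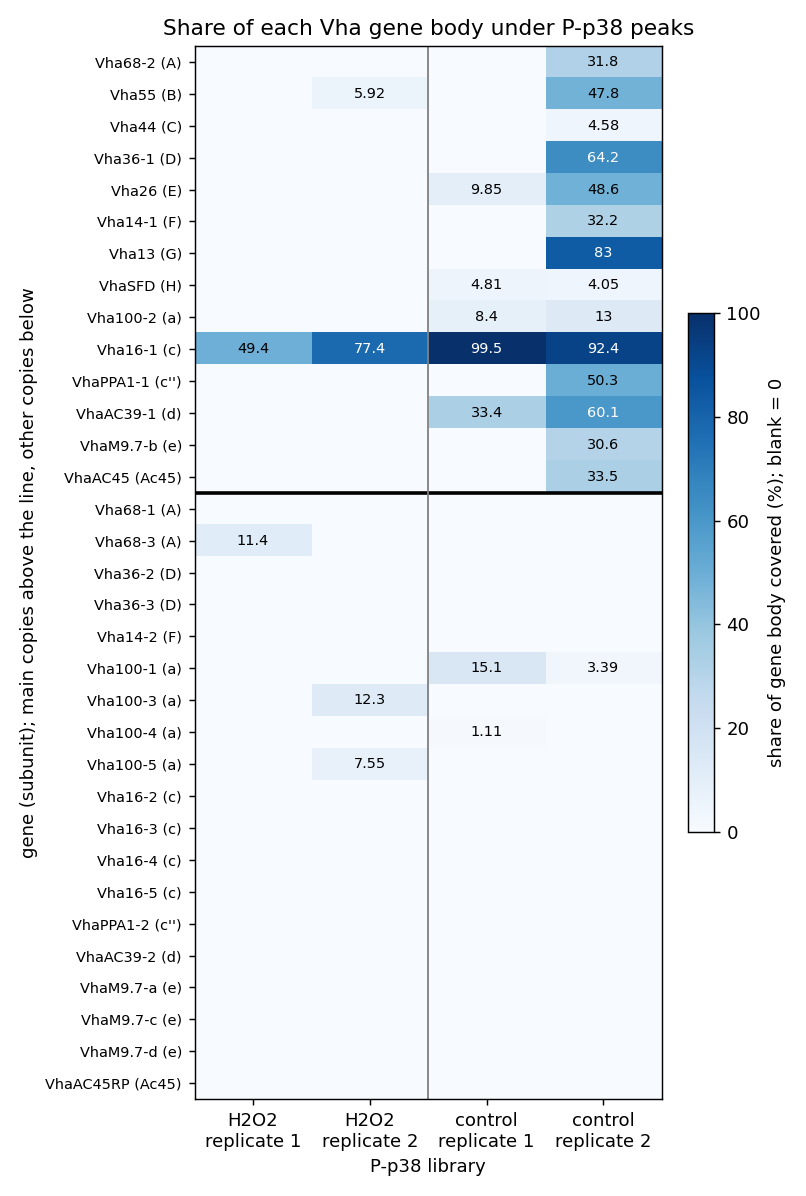
Percent of each gene body under P-p38 peaks for the 33 Vha genes (rows, with the subunit in brackets) in the 4 libraries (columns). Numbers and blue shade give the share and blank cells are 0. Above the line all 14 main copies have a value in control replicate 2, and Vha16-1 alone has one in every library. Below it the 19 other copies hold 6 values, none above 15.1%.

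Main copies were overlapped in control replicate 2 in each class of body length. Main copies of up to 2 kb were overlapped in 5 of 5 cases there, and other copies of that length in 0 of 13, against 7.24% of all protein-coding genes of that length. Between 2 and 5 kb the counts were 6 of 6 main copies and 0 of 4 other copies, against 12.9% of such genes. Between 5 and 20 kb they were 3 of 3 main copies and 1 of 2 other copies, against 19.5%. In control replicate 1 the main copies overlapped were 0 of 5, 3 of 6 and 2 of 3 in these classes, with 6.60%, 11.8% and 23.0% of all genes. None of the 5 main copies of up to 2 kb was overlapped in H2O2 replicate 1 or 2, where 4.33% and 4.43% of all such genes were. Between 2 and 5 kb 0 and 1 of 6 main copies were overlapped in H2O2 replicates 1 and 2, against 7.16% and 8.92% of all such genes. Between 5 and 20 kb it was 1 of 3 in each H2O2 library, against 18.0% and 20.9%.

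Vha16-1 encodes the c subunit, the proteolipid whose ring carries the protons, and it was the only member with peaks in all 4 libraries, as were 1.90% of all protein-coding genes. The gene lies at 2R 6625242 to 6633090 (7849 bp). Peaks covered 49.4% and 77.4% of it in H2O2 replicates 1 and 2, and 99.5% and 92.4% in control replicates 1 and 2. Coverage was thus lower in both H2O2 libraries than in both control libraries. The strongest peak stood at percentile 97.8 and 99.1 of the authors' fold enrichment within the lists of H2O2 replicates 1 and 2, and at percentile 98.5 and 98.8 within those of control replicates 1 and 2. Rank within the list therefore overlapped between groups where coverage did not.

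The peaks over Vha16-1 differed in how they were divided. H2O2 replicates 1 and 2 had 7 and 4 separate peaks, control replicate 1 had a single peak of 8494 bp and control replicate 2 had 3. The widest peak was 1500 and 3604 bp in H2O2 replicates 1 and 2, and 8494 and 4735 bp in control replicates 1 and 2. A summit 1.93 kb into the gene from its lower-coordinate end was shared by both H2O2 libraries, at 6627174 in replicate 1 and 6627171 in replicate 2, 3 bp apart. It was the strongest of the gene in H2O2 replicate 1 (percentile 97.8) and the next strongest in H2O2 replicate 2 (percentile 96.8). The control replicate 2 peak over that position had its summit at 6626767 and stood at percentile 63.2. Near the other end, summits lay 399 and 352 bp inside the gene in H2O2 replicates 1 and 2, and 1276 and 241 bp inside in control replicates 1 and 2. The peaks with these summits ranked at percentile 29.7 and 99.1 in H2O2 replicates 1 and 2, so the H2O2 libraries did not match each other there. In control replicates 1 and 2 they ranked at percentile 98.5 and 98.8, the former being the single peak along the gene. Its summit lay 94 bp from another summit of H2O2 replicate 1, in a peak at percentile 30.3. The single peak of control replicate 1, and the first peak of H2O2 replicate 1, also ran over the neighbouring gene CG33919.

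**Figure D3:**
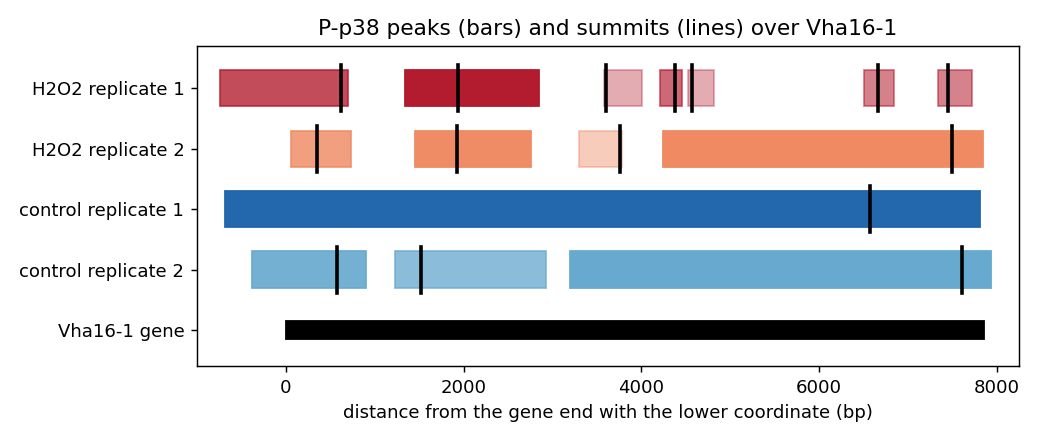
P-p38 peaks (bars) and their summits (black lines) along Vha16-1 in the 4 libraries, by distance in bp from the gene end with the lower coordinate; the black bar is the gene, and a darker shade is a higher fold percentile within the list. Both H2O2 lists and the list of control replicate 2 hold separate peaks with gaps. The H2O2 lists share a summit about 1.93 kb in, and the control lists cover 99.5% and 92.4% of the gene.

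The 8 main V1 genes had 0 and 1 members overlapped in H2O2 replicates 1 and 2, and 2 and 8 in control replicates 1 and 2. Vha55 (3R 12623762 to 12627829) encodes the nucleotide-binding B subunit and was the only main V1 gene with a peak in H2O2. It was covered over 0% and 5.92% in H2O2 replicates 1 and 2, and over 0% and 47.8% in control replicates 1 and 2. The H2O2 replicate 2 peak was 241 bp wide and stood at percentile 34.1, with a −log10 q of 1.1. Its summit lay 101 bp from that of a control replicate 2 peak at percentile 58.9. The strongest Vha55 peak of control replicate 2, 1143 bp wide at percentile 94.6, lay elsewhere, with its summit 269 bp inside the higher-coordinate end.

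Vha26 (3R 5591763 to 5595356), for the E subunit of the peripheral stalk, and VhaSFD (2L 16722883 to 16727826), for the regulatory H subunit, had peaks in both control libraries and in no H2O2 library. Peaks covered 9.85% and 48.6% of Vha26 in control replicates 1 and 2, at percentile 95.1 and 96.6. They covered 4.81% and 4.05% of VhaSFD, at percentile 86.9 and 15.5. In both genes the peaks of the control libraries did not overlap each other. In control replicate 1 the Vha26 peak was 3713 bp wide, held 354 bp of the gene and ran on over kra, which lies 8 bp away. The VhaSFD peak of the same library was 1445 bp wide, held 238 bp of the gene and ran on over Cyt-c-p. The peaks of control replicate 1 over these V1 genes were therefore shared with a neighbour, whereas those of control replicate 2 lay over no other protein-coding gene.

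The remaining 5 main V1 genes had peaks in control replicate 2 alone. Vha13 (3R 19643018 to 19644386), for the G subunit of the peripheral stalk, was covered over 83.0% with a strongest peak at percentile 93.5. Vha68-2 (2L 12974322 to 12978607), for the catalytic A subunit, was covered over 31.8% at percentile 90.6. Peaks over the central-stalk genes Vha36-1 (D subunit, 2R 15541435 to 15542498) and Vha14-1 (F subunit, 2R 15679426 to 15680084) covered 64.2% and 32.2% but ranked lower, at percentile 21.4 and 58.4. Vha44 (2R 16324813 to 16336637), for the C subunit, was the longest member at 11825 bp and was covered over 4.58% at percentile 81.7. Its single peak lay at the end where its body overlaps that of Hmgs, and ran over both genes. Apart from that peak, none of the peaks over these 5 genes reached another protein-coding gene.

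The 5 main V0 genes had 1 member overlapped in each H2O2 library, Vha16-1, and 3 and 5 in control replicates 1 and 2. VhaAC39-1 (X 3880748 to 3882967), for the d subunit that joins the central stalk to the ring, was covered over 33.4% and 60.1% in control replicates 1 and 2 and had no peak in either H2O2 library. Its control peaks overlapped over 692 bp, with a pair of summits 20 bp apart (3881843 in replicate 1 and 3881823 in replicate 2). It was thus the main copy besides Vha16-1 whose control peaks coincided. Vha100-2 (3R 18390323 to 18399169), for the large membrane subunit a, was covered over 8.40% and 13.0% in control replicates 1 and 2, by peaks that did not overlap. The strongest stood at percentile 61.2 in replicate 1 and 97.4 in replicate 2, and the peak of replicate 2 also reached Vti1b, whose body overlaps that of Vha100-2. VhaPPA1-1 (3R 14902330 to 14904061), for the c'' subunit of the ring, and VhaM9.7-b (3L 21539862 to 21541215), for the small e subunit, were covered over 50.3% and 30.6% in control replicate 2 alone, at percentile 92.3 and 84.8. VhaAC45 (2R 9207561 to 9209774), for an accessory subunit that aids assembly of the pump, was covered over 33.5% in the same library at percentile 66.2.

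Called in both libraries of a group, the Vha genes numbered 1 in H2O2 (Vha16-1) and 6 in control. Of all protein-coding genes, 5.82% were overlapped in both H2O2 libraries and 6.92% in both control libraries. The 6 in control were Vha16-1, Vha26, VhaSFD, Vha100-2, VhaAC39-1 and the other copy Vha100-1, and 5 of them had no peak in either H2O2 library, as did 3.62% of all protein-coding genes. None was overlapped in both H2O2 libraries and neither control library, a pattern of 2.34% of all protein-coding genes. In only 3 of the 6, Vha16-1, VhaAC39-1 and Vha100-1, did peaks of the control libraries overlap each other. For Vha100-1 this rested on a control replicate 2 peak with a −log10 q of 0.307. With peaks over another protein-coding gene left out, 3 members remained in both control libraries (Vha100-2, VhaAC39-1 and Vha100-1), and at q of 1e-05 or less 2 did (Vha16-1 and Vha26). Vha16-1 was lost from the former because its single control replicate 1 peak, over 99.5% of the gene, also reached CG33919.

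**Figure D4:**
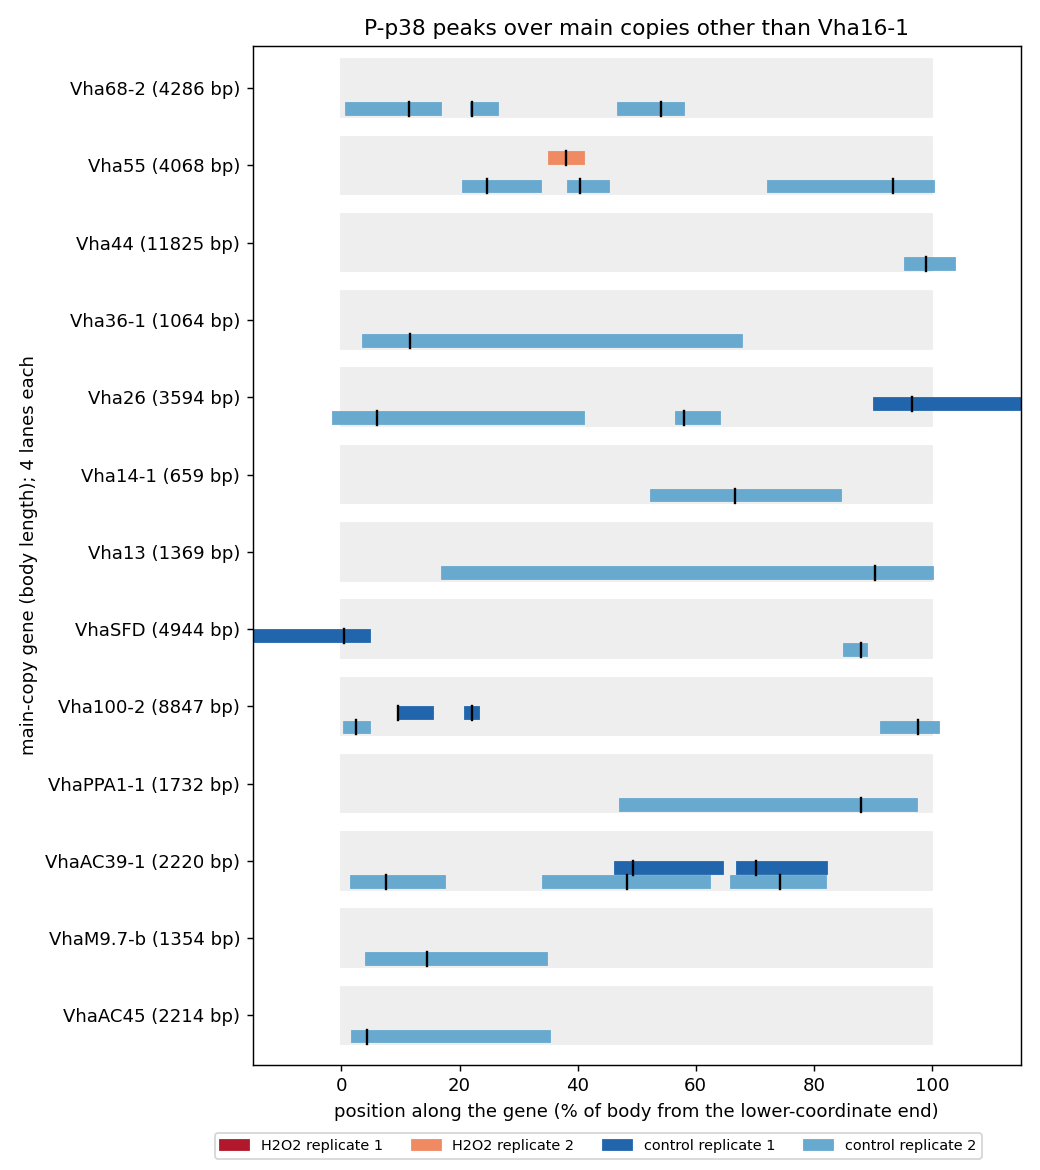
P-p38 peaks (bars, coloured by library) and summits (black lines) along the bodies of the 13 main copies other than Vha16-1, as percent of the body from the lower-coordinate end. Each grey box is 1 gene with 4 lanes, from H2O2 replicate 1 at the top to control replicate 2 at the bottom, and bars are clipped at the edges of the plot. The H2O2 lanes hold the 1 peak over Vha55, and every gene has a bar in the lane of control replicate 2.

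In control replicate 2 the strongest peak over most main copies lay close to a gene end. It had its summit inside the gene in 14 of 14 main copies and within 500 bp of an end in 13 of them, with a median distance of 208 bp (94 to 592). The exception was VhaSFD, at 592 bp. The weaker peaks over main copies in that library lay 572 to 1967 bp from an end, apart from a Vha100-2 peak at 223 bp. Over all genes overlapped in control replicate 2, 52.6% had the strongest summit within 500 bp of an end, and the median distance was 457 bp. Vha14-1 is short enough, at 659 bp, that any summit inside it would lie that close. Vha36-1, VhaM9.7-b, Vha13 and VhaPPA1-1 (1064, 1354, 1369 and 1732 bp) also had most of their bodies within 500 bp of an end. The values over all overlapped genes were not matched for body length, so they are no like-for-like background. In control replicate 1 the distance was within 500 bp for 2 of 5 main copies, with a median of 1095 bp (20 to 1955) against 812.5 bp over all genes overlapped. In H2O2 the distance was 1932 and 352 bp for Vha16-1 in replicates 1 and 2 and 1545 bp for Vha55 in replicate 2, against medians of 1497 and 1209 bp over all genes overlapped in H2O2 replicates 1 and 2. The gene table gives no strand, so starts were not told apart from ends.

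Fold percentiles of the strongest peaks were high over most main copies in control replicate 2, and low over the few other copies overlapped in the control lists. In control replicate 2 the median over the 14 main copies was 88.9 (15.5 to 98.8), and 7 of them stood at or above percentile 90. Over all genes overlapped in that list the median was 65.1, and 20.5% reached that percentile. In control replicate 1 the median over 5 main copies was 86.9 (61.2 to 98.5), against 62.5 over all overlapped genes. There 3 of the 5 peaks also lay over another protein-coding gene (Vha16-1, Vha26 and VhaSFD, at percentile 98.5, 95.1 and 86.9). Those over Vha100-2 and VhaAC39-1 did not, and stood lower, at percentile 61.2 and 72.7. The 3 control values of other copies were 9.25 and 25.4 in replicate 1 (Vha100-4 and Vha100-1) and 0.72 in replicate 2 (Vha100-1). In H2O2 replicates 1 and 2 the overlapped members besides Vha16-1 ranged from 34.1 to 76.8, around the medians of 56.4 and 58.5 over all overlapped genes.

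**Figure D5:**
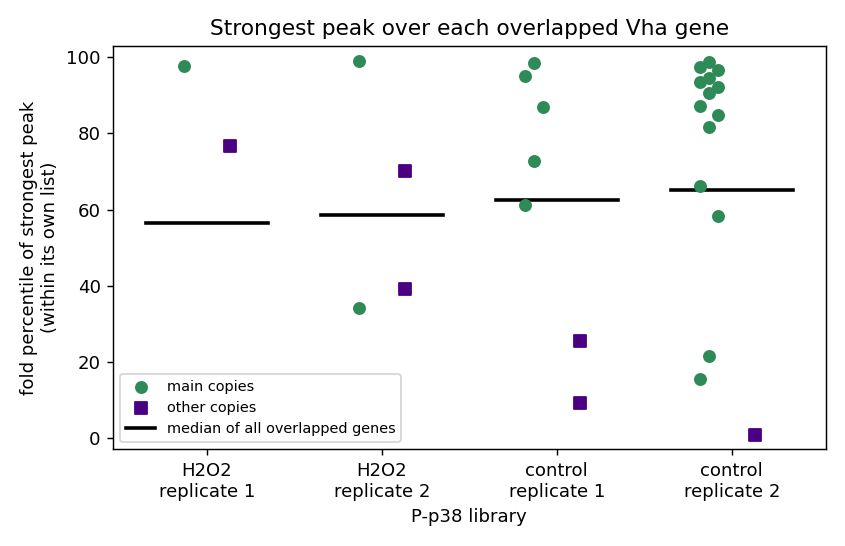
Percentile of the authors' fold enrichment, within its own list, of the strongest peak over each overlapped Vha gene in the 4 libraries. Green circles are main copies, purple squares other copies, and black lines the median over all overlapped protein-coding genes (56.4 and 58.5 in H2O2, 62.5 and 65.1 in control). Main copies in control replicate 2 gather near the top, with a median of 88.9.

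Among the 19 other copies, 14 had no peak in any library, as did 73.2% of all protein-coding genes. They were Vha68-1 (A), Vha36-2 and Vha36-3 (D), Vha14-2 (F), Vha16-2, Vha16-3, Vha16-4 and Vha16-5 (c), VhaPPA1-2 (c''), VhaAC39-2 (d), VhaM9.7-a, VhaM9.7-c and VhaM9.7-d (e) and VhaAC45RP, a relative of VhaAC45. The 5 that were overlapped comprised Vha68-3 (2508 bp) and the 4 of the 19 that encode the large membrane subunit a (2935 to 6788 bp). None of the 13 other copies of up to 2 kb was overlapped in any library, so subunit and body length were not told apart. Vha100-1 (3R 29131193 to 29137980), known as the neuronal a subunit, was the only other copy called in more than 1 library. It had 4 peaks in control replicate 1 and 1 in control replicate 2, covering 15.1% and 3.39%, and none in H2O2. A pair of its control summits lay 58 bp apart (29132314 in replicate 1 and 29132372 in replicate 2), in peaks at percentile 11.0 and 0.72. These peaks had a −log10 q of 1.81 and 0.307, so the call in control replicate 2 was weak. Vha68-3 was covered over 11.4% in H2O2 replicate 1 alone (percentile 76.8), as 3.05% of all protein-coding genes were overlapped in that library alone. Vha100-5 and Vha100-3 were covered over 7.55% and 12.3% in H2O2 replicate 2 alone, at percentile 70.0 and 39.1, and the peak over Vha100-3 also lay over sano, whose body overlaps it. Of all protein-coding genes 3.2% were overlapped in H2O2 replicate 2 alone and 3.54% in control replicate 1 alone. In the last of these patterns Vha100-4 held 33 bp of a control replicate 1 peak (−log10 q 0.948) whose summit lay 340 bp outside it.

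The chromosomal surroundings of the copies differed. Vha68-2 and Vha68-3, both for subunit A, lie 179 bp apart. In control replicate 2 there were 3 peaks over Vha68-2 and none over Vha68-3, and in H2O2 replicate 1 there was 1 peak over Vha68-3 and none over Vha68-2. VhaPPA1-1 was covered over 50.3% in control replicate 2, and the nearest peak of that list to VhaPPA1-2, which lies on its lower-coordinate side, lay 2870 bp away. Vha16-2 and Vha16-3, which lie 986 bp apart, had no peak in any library and were both far from one, with the nearest at 142160 and 143740 bp in H2O2 replicate 1, and at 47982 and 49562 bp in control replicate 1. Vha36-2 had no peak of its own, yet in each of the 4 libraries a peak ended within 1 kb of it, at 847 and 807 bp in H2O2 replicates 1 and 2, and at 744 and 776 bp in control replicates 1 and 2. Its nearest gene is Cam, 746 bp away. The median distance from a main copy to the nearest peak was 17.5 and 9.87 kb in H2O2 replicates 1 and 2, and 3.83 and 0 kb in control replicates 1 and 2. For other copies it was 12.8 and 8.09 kb in H2O2 and 23.4 and 5.37 kb in control, and for all protein-coding genes 26.8 and 19.6 kb in H2O2 and 15.9 and 16.1 kb in control.

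At least 50% of the body was covered for 0 and 1 Vha genes in H2O2 replicates 1 and 2, and for 1 and 5 in control replicates 1 and 2. Over all protein-coding genes the shares were 0.704% and 0.668% in H2O2, and 2.16% and 2.31% in control. The 1 in H2O2 replicate 2 and the 1 in control replicate 1 were Vha16-1. The 5 in control replicate 2 were Vha16-1, Vha13, Vha36-1, VhaAC39-1 and VhaPPA1-1, drawn from both the V1 and the V0 sector. By sector, main V1 genes had a mean share covered of 0% and 0.741% in H2O2 replicates 1 and 2, and 1.83% and 39.5% in control replicates 1 and 2. Main V0 genes had 9.89% and 15.5% in H2O2 and 28.3% and 49.3% in control, and all of the H2O2 values came from Vha16-1. The value of control replicate 1 also rested largely on Vha16-1, covered over 99.5% by the peak that reached CG33919. The median over the main V0 genes there was 8.40%.

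Genes that work with the pump at the lysosome had more members overlapped in both control libraries than in both H2O2 libraries. From a list of 37 matched genes for assembly factors, amino acid sensing, lysosomal proteins and membrane fusion, 4 and 4 (10.8% each) were overlapped in H2O2 replicates 1 and 2, and 12 and 9 (32.4% and 24.3%) in control replicates 1 and 2. The H2O2 shares lay near those over all protein-coding genes (10.0% and 11.2%), and the control shares stood above theirs (13.0% and 12.2%). In both libraries of a group 4 (10.8%) were overlapped in H2O2 and 7 (18.9%) in control, against 5.82% and 6.92% of all protein-coding genes. In both control libraries and neither H2O2 library 5 were overlapped (Sap-r, cathD, Hexo1, lt and Rab7), or 13.5%, against 3.62% of all protein-coding genes. The shares over all protein-coding genes were not matched for body length, and the overlapped genes of the list included long ones such as mtd (80328 bp) and lt (18341 bp). The lysosomal permease gene spin was overlapped in every library, over 29.1% and 51.7% of its body in H2O2 replicates 1 and 2 and 90.8% and 38.3% in control replicates 1 and 2, and stood at or above percentile 94.0 in each list. CtsL1, for a cathepsin L protease, was covered over 3.41% and 14.1% in H2O2 and 100% and 99.6% in control. GILT1, for a thiol reductase of the lysosome, was covered over 16.1% and 33.7% in H2O2, and over 22.9% and 0% in control. Sap-r, for the saposin precursor, was covered over 0% and 0% in H2O2 and 91.0% and 18.7% in control, at percentile 97.5 and 67.1. The protease gene CtsF was covered over 2.47% and 1.48% in H2O2 replicates 1 and 2, and over 1.63% and 0% in control replicates 1 and 2. The protease gene cathD, the hexosaminidase gene Hexo1 and the fusion genes lt and Rab7 had no peak in H2O2, and in both control libraries had peaks over at most 23.1% of the body. In control replicates 1 and 2 these stood at percentile 28.9 and 54.7 (cathD), 12.6 and 24.2 (Hexo1), 28.0 and 19.3 (lt), and 46.4 and 15.0 (Rab7). All were below the medians of 62.5 and 65.1 over all overlapped genes. No peak in any library lay over 23 of the 37 genes (62.2%), against 73.2% of all protein-coding genes. Among the 23 were Mitf, whose product activates V-ATPase genes in flies, RagA-B, RagC-D and the 5 Lamtor genes. These were picked out after their values were seen. In control replicate 2 the counts were thus 9 of 37 for this list and 14 of 14 for the main copies, a difference over genes that was not tested.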

How the data were processed

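P-p38 immunoprecipitates of S2 cells were analysed from the deposited peak lists, 1 per library. Per the submitters' processing notes, the tools were Picard and MACS2 and the genome build was dm6. The sources used here give neither versions and options nor the library taken as background. Each deposited line gives an interval, a score, a fold enrichment (a ratio on a linear scale) and a summit, and the authors' p-value and q-value on the −log10 scale. All peaks on the 6 arms were used, 17755 in total. The lowest −log10 p was 2.0 or 2.01 in each list, so peaks with weak q-values were included. Folds were ranked within each list, since their background is unknown. Gene bodies (start to end) came from the RefSeq table of Release 6, the assembly of dm6, without strand, exons or sequence; the planned search for promoter motifs was not run. Of the 15 main copies planned, VhaM8.9 carries another symbol in the table and is not counted.

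Overlap, share of body covered, summit position and percentile were computed in Python 3.11.15 (pandas 2.3.3), with the coverage step tested on simulated peaks. H2O2 and control libraries were compared by exact permutation of labels. Every member with a peak is named. The members, classes and lists were chosen with earlier results of these data known. Alternatives are given in the closing section. Of the 38 listed partner genes 37 were matched. Up to 8 called in both libraries of a group were to be named, those whose lowest percentile was highest. Hexo1 was added after its values were seen.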

Additional observations from a re-analysis of the deposited data

How the results depend on the processing

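The difference between group means kept its sign in all 57 recomputed values of the 5 comparisons of H2O2 with control libraries: at q of 1e-05 or less, with lists of equal length (2988 peaks), with the summit inside the body, with at least 200 bp covered, with 500 bp added at each end, without peaks over another protein-coding gene, with Vha68-1, Vha100-1 and VhaM9.7-a counted as main copies, without each library in turn and with a replicate block. None could pass 0.05 in any of them. With all peaks, both H2O2 libraries lay below both control libraries in each comparison. Leaving out 1 library or adding the block therefore could not change the sign. The separation of the libraries did not always hold: control replicate 1 fell among or below the H2O2 libraries without peaks over another protein-coding gene for the share covered (1.57% and 2.75% in H2O2, 1.76% in control replicate 1) and for main minus other copies (1.88 and 9.02 against 3.76 points overlapped, 2.29 and 5.55 against 2.14 points covered). It also fell below them at q of 1e-05 or less for the ratio to all genes (2.59 and 2.62 against 2.09). The count of 6 Vha genes in both control libraries became 2 at q of 1e-05 or less and 3 without peaks over another protein-coding gene. With a single library standing for its group, the counts were 2 to 4 in H2O2 and 7 to 15 in control. Leaving out 1 library at a time, the difference in genes overlapped ran from -12 to -4, in share covered from -15.7 to -2.73, in the ratio to all genes from -2.88 to -0.795, and in main minus other copies from -91.9 to -22.4 points overlapped and from -38.5 to -6.37 points covered. Without peaks over another gene, 1 and 2 main copies were overlapped in H2O2 replicates 1 and 2, and 2 and 13 in control replicates 1 and 2. That setting left out the single control replicate 1 peak of Vha16-1, which covered 99.5% of the gene and also reached CG33919. At q of 1e-05 or less the Vha genes overlapped were 1 and 1 in H2O2 and 3 and 11 in control. With a replicate block the differences were the same (-8 genes and -9.21 points covered) with an exact sign-flip p of 0.5, the smallest that 2 pairs allow. The labels do not say that replicate numbers pair the libraries, and their deviations over 13922 genes had a correlation of 0.0602. Read depth is unknown, so it cannot be said which differences the depth of a library limits.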

Other observations

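ATP6AP2, the accessory subunit gene also written VhaM8.9, lies outside the symbol rule. It was covered over 0% and 0% in H2O2 replicates 1 and 2, and over 10.3% and 72.3% in control replicates 1 and 2, where its strongest peaks stood at percentile 14.5 and 85.9. CG5421, which also has a Vha name among its synonyms, had no peak in any library.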
